A study of Arabidopsis thaliana with 44 samples.

Results

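SAUR19, SAUR20, SAUR21, SAUR22, SAUR23 and SAUR24 (AT5G18010, AT5G18020, AT5G18030, AT5G18050, AT5G18060 and AT5G18080) and SAUR15 (AT4G38850) are 7 of the 34133 loci in an FPKM table of dark-grown Arabidopsis seedlings. They were taken by locus identifier, and all 7 have a row. SAUR genes (small auxin up RNA) encode small proteins whose transcripts accumulate quickly after auxin and turn over fast. Their proteins inhibit D-clade type 2C protein phosphatases (PP2C.D), which otherwise remove the activating phosphate of the plasma membrane proton pumps. An active pump acidifies the cell wall, and the wall loosens and the cell expands. SAUR19 to SAUR24 form a tandem array of near-copies and are known from elongating hypocotyls. SAUR15 was described early as a fast auxin-responsive transcript under the name SAUR-AC1.

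Whole seedlings of 5 genotypes in the Col-0 background were grown in darkness for 14 days, either germinated in orbit (flight) or in matching hardware on Earth run with an offset of 2 days (ground). The mutants were bzip28 (allele bzip28-2), bzip60 (bzip60-2), the double mutant bzip28bzip60 (bzip28-2 with bzip60-1) and the double mutant ire1aire1b (ire1a-4 with ire1b-2), set against WT. The mutants are disrupted in sensors or transcription factors of the unfolded protein response, the pathway that reports protein folding stress in the endoplasmic reticulum. Each of the 10 groups held 4 libraries, each from a plate of 70 to 80 seeds on 0.5% sucrose, and the seedlings were preserved in RNAlater. The single mutant and the double mutant carry different bzip60 alleles. The labels name no second flight or ground run, so p-values for flight against ground measure the spread between plates of 1 run each.

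The values are FPKM, read fragments per kilobase of transcript divided by the mapped total of each library. Differences are given as log2(FPKM + 1), first as deposited and then in brackets after median-ratio rescaling, a scaling that sets the typical gene level in all libraries. The reason for giving both is AT2G01021, a locus that held 2.97 to 47.2% of the summed FPKM in flight libraries and 36.1 to 89.9% in ground libraries. The median of the 19186 loci tested differed by 0.76 (0.10 rescaled) between flight and ground as the mean of the 5 genotypes. "Rose" and "fell" are used of a locus whose adjusted p (limma, Benjamini-Hochberg over all tested loci) was below 0.05 in the same direction on both scales. Library depth was not given. Depth was estimated from the most frequent low product of FPKM and transcript length in 20412 loci with 1 annotated transcript. That product was taken to be 1 fragment, which was not checked further. Depth then came to about 19800000 to 30300000 fragments in flight and 16800000 to 27400000 on the ground. On a member, 1 fragment was then worth about 0.039 to 0.102 FPKM in flight and 0.044 to 0.12 FPKM on the ground. A listed 0 can also be a failed estimate, which the values cannot tell from an absent transcript. Of the 13827 loci with a mean of at least 5 FPKM, 263 were listed at 0 in 1 or more libraries. Array genes are among the 263, so that count does not measure failed estimates.

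In RefSeq's TAIR10.1 annotation the 6 array genes lie on chromosome 5 within 21536 bases, from 5962773 to 5984308, and SAUR15 lies on chromosome 4 from 18126057 to 18126829 on the plus strand. Every member is a single exon. SAUR22 (5974341 to 5975087, minus strand) and SAUR23 (5975780 to 5976589, plus strand) point away from each other across 692 bases, and SAUR20 (5966183 to 5966677, minus) and SAUR21 (5968352 to 5969190, plus) across 1674 bases. SAUR19 lies from 5962773 to 5963405 on the minus strand and SAUR24 from 5983683 to 5984308 on the plus strand. AT5G18040 lies within the array between SAUR21 and SAUR22, and DRT101 (AT5G18070) between SAUR23 and SAUR24. Coding sequences were 87.7 to 95.2% identical between array members (median 91.2% over 15 pairs), and 69.5 to 72.9% between SAUR15 and an array member. The closest pair was SAUR19 and SAUR24, at 95.2%, and the most distant within the array was SAUR20 and SAUR22, at 87.7%. The coding strands below, from RefSeq TAIR10.1, are shown because how far the copies can be told apart decides how their values can be read; capitals mark bases that differ from SAUR19 in a pairwise alignment.
SAUR19: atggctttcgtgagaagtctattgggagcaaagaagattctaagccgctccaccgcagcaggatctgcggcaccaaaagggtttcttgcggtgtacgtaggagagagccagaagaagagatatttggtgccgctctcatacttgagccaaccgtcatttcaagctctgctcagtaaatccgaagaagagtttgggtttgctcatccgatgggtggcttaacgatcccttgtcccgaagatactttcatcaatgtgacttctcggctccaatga
SAUR24: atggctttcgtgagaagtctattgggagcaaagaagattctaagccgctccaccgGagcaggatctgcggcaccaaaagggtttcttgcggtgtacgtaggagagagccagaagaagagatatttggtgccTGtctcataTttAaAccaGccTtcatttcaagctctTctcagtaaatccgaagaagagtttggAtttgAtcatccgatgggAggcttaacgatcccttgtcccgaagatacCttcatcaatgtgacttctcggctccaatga
SAUR22: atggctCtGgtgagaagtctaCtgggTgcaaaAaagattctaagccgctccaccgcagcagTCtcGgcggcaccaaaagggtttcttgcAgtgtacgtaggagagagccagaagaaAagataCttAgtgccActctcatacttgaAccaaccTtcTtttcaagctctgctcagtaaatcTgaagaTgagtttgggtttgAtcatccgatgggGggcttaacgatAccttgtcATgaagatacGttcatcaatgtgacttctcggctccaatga
SAUR15: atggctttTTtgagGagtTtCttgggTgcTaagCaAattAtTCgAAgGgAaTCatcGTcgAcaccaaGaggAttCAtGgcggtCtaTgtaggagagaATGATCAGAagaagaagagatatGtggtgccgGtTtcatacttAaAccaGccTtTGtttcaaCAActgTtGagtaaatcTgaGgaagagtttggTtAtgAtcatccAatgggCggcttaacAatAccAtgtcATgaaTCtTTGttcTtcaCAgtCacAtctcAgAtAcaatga
SAUR24 has 13 capitals, SAUR22 has 24 and SAUR15 has 76. Of the 50-base windows of the transcript, 18.5% of SAUR19, 7.1% of SAUR24, 5.8% of SAUR20, 5.2% of SAUR21, 2.6% of SAUR23 and 0.6% of SAUR22 also occur in another array member, and 0.0% of SAUR15. No 100-base window of a member occurs elsewhere in the genome. Read length was not given in the sources used here, so short reads may have been split among the copies, most of all for SAUR19, and the 6 values are not fully independent measurements.

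The 250 bases before each transcript start were searched on both strands for TGTCTC, the classical auxin response element, TGTCGG, a form that auxin response factors bind strongly, CACGTG, the G-box, and CATGTG, a related box bound by PIF factors. TGTCTC is present in SAUR20, SAUR22 and SAUR15, and in 10.9% of 27443 nuclear protein-coding promoters. CATGTG is present in SAUR19, SAUR21, SAUR22 and SAUR15, and in 11.1% of all. TGTCGG and CACGTG, present in 4.2% and 6.5% of all, are in no member, and SAUR23 and SAUR24 hold none of the 4 in this window. No motif overlapped another. The stretches of SAUR22, the member with the largest flight difference, and of SAUR15, which both hold TGTCTC and CATGTG, are given 5′ to 3′ on the gene's strand with the matches in capitals (TAIR10.1, chr5:5975088-5975337, minus strand, and chr4:18125807-18126056, plus strand).
SAUR22 upstream: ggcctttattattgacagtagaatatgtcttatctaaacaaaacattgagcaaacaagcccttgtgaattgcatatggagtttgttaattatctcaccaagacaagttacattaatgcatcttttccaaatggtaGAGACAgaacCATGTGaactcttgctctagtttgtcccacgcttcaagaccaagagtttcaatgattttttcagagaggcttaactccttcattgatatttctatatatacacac
SAUR15 upstream: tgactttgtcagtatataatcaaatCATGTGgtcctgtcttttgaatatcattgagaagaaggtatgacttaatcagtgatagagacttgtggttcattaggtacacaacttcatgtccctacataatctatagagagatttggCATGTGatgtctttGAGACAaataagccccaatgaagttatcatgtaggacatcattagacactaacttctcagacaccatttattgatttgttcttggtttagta
In SAUR22 the first bases of the matches lie 115 and 105 bases before the start, and in SAUR15 they lie 225, 106 and 92 bases before it. A match describes the letters of this window and is not a measured binding site.

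All 6 array genes rose in flight in all 5 genotypes, where they stood at 4.21 to 37.4 FPKM, against 0 to 8.16 FPKM on the ground. By genotype 32.6 to 35.5% of all loci rose, and the share that rose in all 5 was not counted. SAUR22 had 29, 19.2, 30.7 and 29.8 FPKM in WT flight, against 0.324, 0.402, 0 and 0 FPKM in WT ground. SAUR23 had 30.5, 27.7, 24 and 22.7 FPKM in WT flight, against 1.04, 1.32, 0.113 and 0.372 FPKM in WT ground. These neighbours in the array were the 2 highest members in flight, and no flight value came near a ground value. SAUR24 had 18.3, 13.2, 13.9 and 13.7 FPKM in WT flight, against 0.487, 0, 0 and 0 FPKM in WT ground. SAUR21 had 10.1, 13.9, 14.5 and 15.3 FPKM in WT flight, against 1.83, 0.699, 0 and 0.531 FPKM in WT ground. SAUR24, the last copy of the array, was thus listed at 0 in 3 of 4 WT ground libraries. SAUR19 had 13.1, 13.2, 11.5 and 9.48 FPKM in WT flight, against 1.18, 0.367, 0.124 and 0.279 FPKM in WT ground. SAUR20 had 8.79, 4.82, 10.2 and 8.68 FPKM in WT flight, against 0.762, 0, 0 and 0 FPKM in WT ground. The lowest WT flight value of each array gene exceeded its highest WT ground value by several FPKM.

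**Figure D1:**
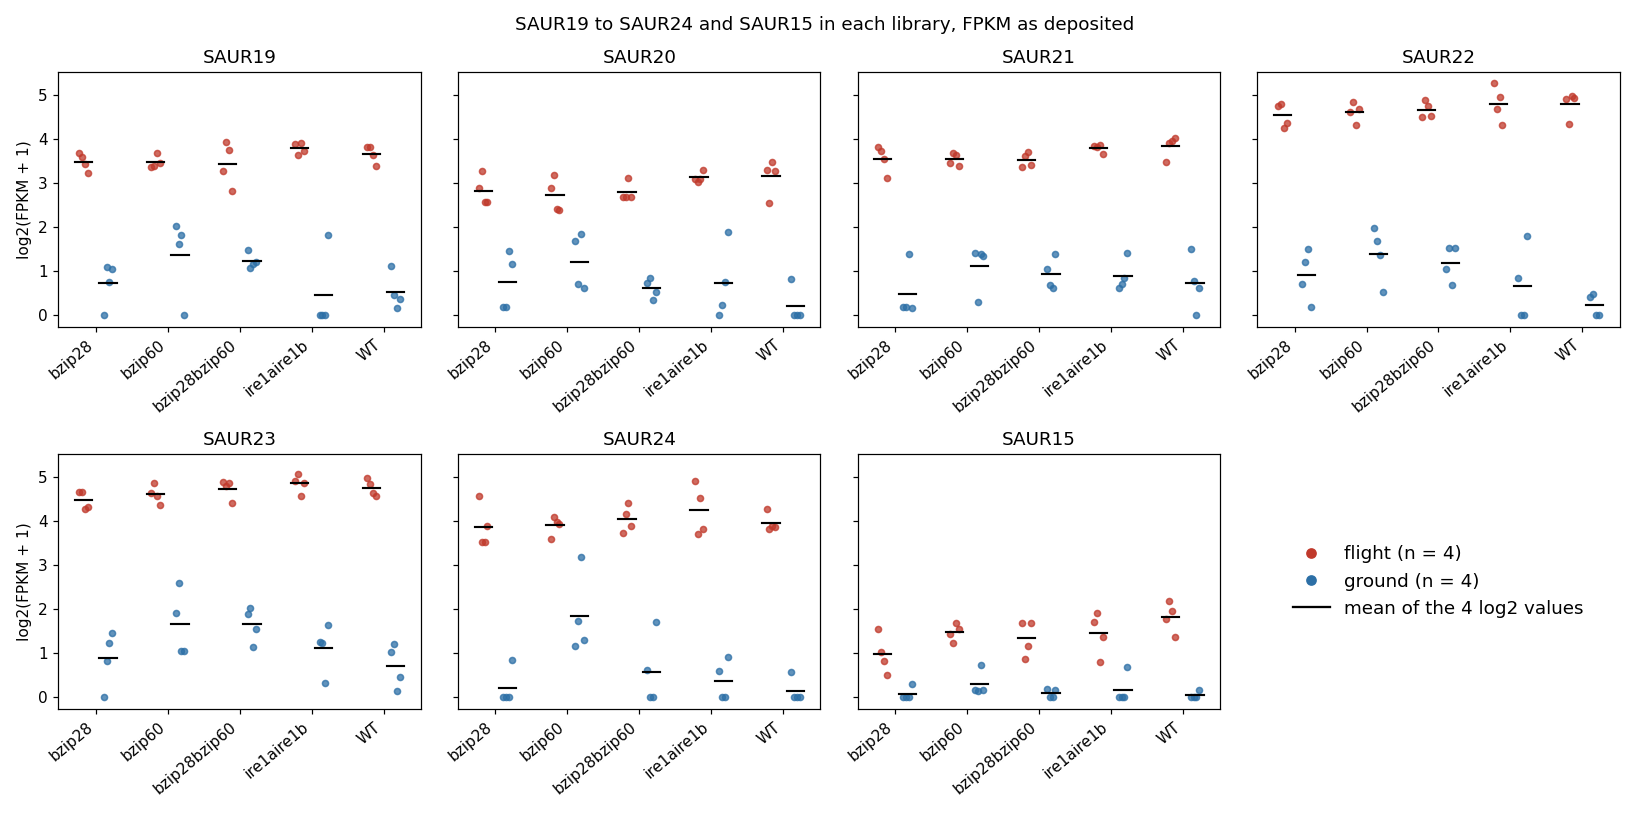
log2(FPKM + 1) of each member in every library (points), with flight to the left of ground in each genotype and n = 4 libraries per group; bars are the means of the 4 log2 values. For SAUR19 to SAUR24 the flight points lie above the ground points in each genotype, and SAUR24 on the ground reaches 8.16 FPKM in 1 bzip60 library.

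The log2 difference in WT was 4.57 ± 0.31 (4.08 rescaled) for SAUR22, 4.04 ± 0.29 (3.42) for SAUR23 and 3.82 ± 0.35 (3.40) for SAUR24 (SE, limma). SAUR19 differed by 3.14 ± 0.33 (2.60), SAUR21 by 3.12 ± 0.26 (2.53) and SAUR20 by 2.94 ± 0.32 (2.53). The adjusted p (limma) was at most 5.4e-10 as deposited and 1.5e-07 rescaled among these 6. Because 1 is added to each value and ground levels were under 2 FPKM, these differences understate the ratio of the levels. In WT, 35.5% of the 19186 loci tested rose, and 31.2% had all 4 flight values above all 4 ground values on both scales, as all 6 array genes had. The array genes entered the test through their flight levels, since the mean over all libraries had to reach 1 FPKM; a count of members that rose is therefore a description.

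Per library the mutants showed the same separation. SAUR22 had 25.9, 26.8, 18.1 and 19.7 FPKM in bzip28 flight, against 0.642, 1.31, 1.83 and 0.141 FPKM in bzip28 ground. It had 23.5, 27.6, 18.9 and 24.7 FPKM in bzip60 flight, against 2.91, 2.22, 1.58 and 0.44 FPKM in bzip60 ground. The highest ground value in either mutant was thus far under the lowest flight value. SAUR22 had 21.6, 28.5, 26.1 and 22 FPKM in bzip28bzip60 flight, against 1.06, 1.87, 0.598 and 1.87 FPKM in bzip28bzip60 ground. It had 37.4, 24.8, 30 and 19 FPKM in ire1aire1b flight, against 0.781, 0, 0 and 2.47 FPKM in ire1aire1b ground. The flight libraries of ire1aire1b were the most spread for this gene. SAUR20, with the smallest difference of the array, had 6.44, 8.74, 4.9 and 4.9 FPKM in bzip28 flight, against 0.139, 0.144, 1.75 and 1.23 FPKM in bzip28 ground. It had 6.4, 8.13, 4.33 and 4.21 FPKM in bzip60 flight, against 2.23, 0.623, 2.58 and 0.535 FPKM in bzip60 ground. The gap between conditions was narrowest in bzip60, where the lowest flight value was 4.21 FPKM and the highest ground value 2.58 FPKM. SAUR20 had 5.39, 5.46, 7.72 and 5.44 FPKM in bzip28bzip60 flight, against 0.662, 0.806, 0.272 and 0.447 FPKM in bzip28bzip60 ground. It had 7.59, 7.07, 7.59 and 8.84 FPKM in ire1aire1b flight, against 0, 0.18, 0.678 and 2.7 FPKM in ire1aire1b ground. Across the 4 mutants SAUR19 stood at 6.06 to 14.2 FPKM in flight and 0 to 3.1 FPKM on the ground, SAUR21 at 7.64 to 13.5 and 0.125 to 1.66 FPKM, SAUR23 at 18.4 to 32.9 and 0 to 5.09 FPKM, and SAUR24 at 10.5 to 29 FPKM in flight and 0 to 8.16 FPKM on the ground.

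The log2 differences in the mutants ran from 1.51 to 4.15 (1.24 to 3.57 rescaled). In bzip28 the difference was 3.64 (2.94 rescaled) for SAUR22, 3.60 (3.06) for SAUR23, 3.67 (3.32) for SAUR24, 3.07 (2.58) for SAUR21, 2.76 (2.25) for SAUR19 and 2.08 (1.58) for SAUR20. In ire1aire1b it was 4.15 (3.57) for SAUR22, 3.87 (3.34) for SAUR24, 3.75 (3.04) for SAUR23, 3.33 (2.91) for SAUR19, 2.90 (2.26) for SAUR21 and 2.41 (1.92) for SAUR20. In bzip28bzip60 it was 3.47 (2.90) for SAUR22, 3.47 (3.05) for SAUR24, 3.09 (2.46) for SAUR23, 2.58 (2.07) for SAUR21, 2.21 (1.65) for SAUR19 and 2.18 (1.70) for SAUR20. All 6 rose in each of these mutants, while 35.1%, 34.2% and 32.6% of all loci rose in bzip28, ire1aire1b and bzip28bzip60. Their flight and ground values did not overlap on either scale, as held for 29.7%, 28.4% and 31.3% of all loci in these 3 mutants.

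In bzip60 the 6 also rose, with 33.2% of all loci, but the differences were the smallest of the 5 genotypes for every array gene as deposited; rescaled, this held for SAUR20 and SAUR24, and the other 4 were smallest in bzip28bzip60. They were 3.22 (2.93 rescaled) for SAUR22, 2.96 (2.67) for SAUR23, 2.43 (2.11) for SAUR21, 2.10 (1.83) for SAUR19, 2.06 (1.76) for SAUR24 and 1.51 (1.24) for SAUR20. The largest adjusted p (limma) among all 30 pairs of array gene and genotype, 1.9e-04 as deposited and 0.0028 rescaled, was that of SAUR20 in bzip60. SAUR24 had 11.1, 16.1, 14.9 and 14.4 FPKM in bzip60 flight, against 1.25, 2.33, 8.16 and 1.46 FPKM in bzip60 ground. Its lowest flight value exceeded the highest ground value as deposited, and after rescaling the values overlapped, at 7.74 in flight and 7.90 on the ground. The other 5 array genes did not overlap on either scale, as 29.7% of all loci did not in bzip60.

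**Figure D2:**
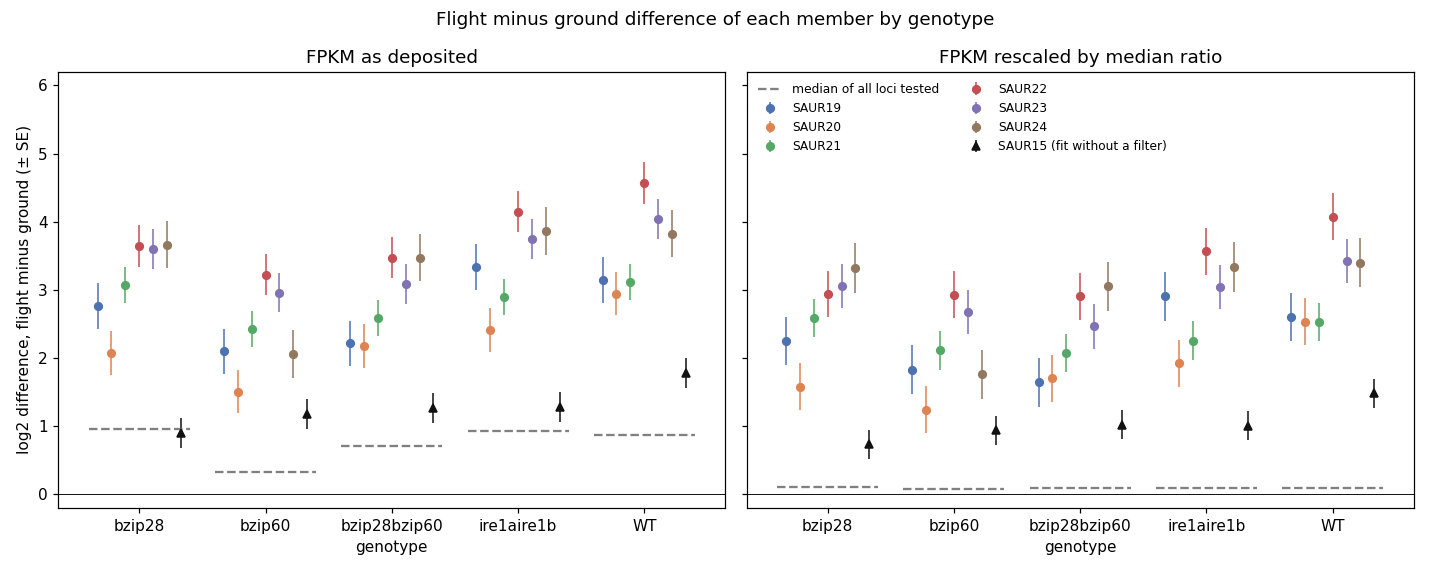
Flight minus ground log2 difference (± SE, limma, n = 4 against 4) of each member in each genotype, as deposited on the left and rescaled on the right; triangles are SAUR15 from the fit without a filter, and dashed lines are the median over all 19186 loci. The array genes lie between 1.51 and 4.57 as deposited and between 1.24 and 4.08 rescaled, all above the dashed lines.

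As the mean of the 5 genotypes, SAUR22 rose by 3.81 (3.28 rescaled), SAUR23 by 3.49 (2.93), SAUR24 by 3.38 (2.97), SAUR21 by 2.82 (2.31), SAUR19 by 2.71 (2.25) and SAUR20 by 2.22 (1.8), where 46.8% of all loci rose. Among the 19186 loci ordered by this difference, SAUR22 stood at place 59 (54 rescaled), SAUR23 at 105 (97), SAUR24 at 115 (95), SAUR21 at 238 (199), SAUR19 at 296 (225) and SAUR20 at 639 (466). The libraries were sequenced in 4 lanes, of which lanes 2 and 4 held both conditions. The fit within a lane held genotype as a term, so only genotypes with both conditions in that lane informed the difference. In lane 4 (5 flight and 5 ground libraries) these were bzip28, ire1aire1b and WT. All 6 rose there, SAUR22 by 4.47 (3.74 rescaled), SAUR24 by 4.34 (3.82), SAUR23 by 4.15 (3.47), SAUR19 by 3.51 (3.02), SAUR21 by 3.49 (2.86) and SAUR20 by 2.85 (2.35), where 31.2% of all loci rose. In lane 2 (4 flight and 6 ground libraries) only bzip60 had both conditions. The lane 2 differences thus compare bzip60 flight replicate 4 with bzip60 ground replicates 1 and 2, and no call is read from them. They were 2.85 (2.77 rescaled) for SAUR22, 2.53 (2.40) for SAUR21, 2.50 (2.40) for SAUR24, 2.11 (2.05) for SAUR23, 1.62 (1.56) for SAUR19 and 1.19 (1.11) for SAUR20. Median differences over all loci were 1.12 (0.10) in lane 4 and 0.10 (0.09) in lane 2.

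SAUR15, the member outside the array, averaged under 1 FPKM over all libraries and so its tests come from the alternative fit without a filter on low values (28434 loci); taking them from there was decided after its level was seen. It had 2.42, 3.58, 2.87 and 1.58 FPKM in WT flight, against 0, 0, 0 and 0.124 FPKM in WT ground. It had 1.94, 1.03, 0.774 and 0.411 FPKM in bzip28 flight, against 0, 0, 0 and 0.224 FPKM in bzip28 ground. Its flight levels were thus highest in WT and lowest in bzip28, with overlap between genotypes. It had 1.70, 1.36, 2.21 and 1.92 FPKM in bzip60 flight, against 0.115, 0.106, 0.674 and 0.121 FPKM in bzip60 ground. It had 2.23, 0.816, 1.23 and 2.21 FPKM in bzip28bzip60 flight, against 0.143, 0, 0 and 0.116 FPKM in bzip28bzip60 ground. It had 2.28, 2.79, 0.752 and 1.57 FPKM in ire1aire1b flight, against 0, 0, 0 and 0.604 FPKM in ire1aire1b ground. Within each genotype the flight values exceeded the ground values as deposited, and after rescaling they overlapped in ire1aire1b. How many loci of the fit without a filter did so was not counted.

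SAUR15 rose in that fit in every genotype, by 1.78 ± 0.22 (1.48 rescaled) in WT, 1.28 (1.01) in ire1aire1b, 1.26 (1.02) in bzip28bzip60, 1.17 (0.94) in bzip60 and 0.90 (0.73) in bzip28, and by 1.28 (1.04) as their mean. The largest adjusted p (limma) was 5.5e-04 as deposited and 0.0049 rescaled, both in bzip28. Without the filter, 26.5% of loci rose in WT, 25.5% in ire1aire1b, 23.7% in bzip28bzip60, 24.1% in bzip60, 26.2% in bzip28 and 37.8% as the mean. In fragments, SAUR15 rested on about 8 to 66 (median 35.5) per flight library and 0 to 12 (median 0) per ground library. Array genes rested on more: SAUR22 on about 302 to 735 (median 441) in flight and 0 to 52 (median 10) on the ground, and SAUR20, the least covered of the 6 in flight, on 52 to 114 (median 85) in flight and 0 to 30 (median 6) on the ground, where SAUR24 had a median of 3. These counts are estimates from a later annotation's transcript lengths and from the value taken to be 1 fragment. A ground level of a member is known far less closely than a flight level.

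The top and the bottom of the members were the same in every flight library. SAUR22 or SAUR23 was the highest of the 7 in 20 of 20 flight libraries, SAUR20 was the lowest of the array in 20 of 20, and SAUR15 was below the array in 20 of 20; SAUR22 and SAUR23 changed places with each other, as did SAUR19, SAUR21 and SAUR24 in between. FPKM is per length, so these levels may be compared between genes within the limit set by shared reads. On the ground SAUR22 or SAUR23 was the highest in 10 of 20 libraries and SAUR20 the lowest of the array in 4 of 20. SAUR24 was listed at 0 in 0 of 20 flight libraries and in 10 of 20 ground libraries. No member was listed at 0 in 20 of 20 flight libraries and in 7 of 20 ground libraries.

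Summed over the array, FPKM came to 72.4 to 130.1 (median 96.6) in the 20 flight libraries and to 0.237 to 17.6 (median 5.10) in the 20 ground libraries. By genotype the flight sum was 108.7 ± 15.8 in ire1aire1b, 101.6 ± 7.56 in WT, 93.3 ± 14.1 in bzip28bzip60, 88.1 ± 9.09 in bzip60 and 85.9 ± 15.6 in bzip28 (SD, n = 4 each). The ground sum ran from 5.07 to 17.6 in bzip60, 3.82 to 9.47 in bzip28bzip60, 1.70 to 12.4 in ire1aire1b, 0.918 to 7.24 in bzip28 and 0.237 to 5.62 in WT. SAUR22 and SAUR23 made up most of the flight sum, with medians of 27% and 26.2% of it, followed by SAUR24 (16.2%), SAUR21 (12.3%), SAUR19 (11.5%) and SAUR20 (6.93%). On the ground the median shares were 26.9% for SAUR23, 15.6% for SAUR19, 15% for SAUR22, 14.3% for SAUR21, 9.48% for SAUR20 and 3.44% for SAUR24, with single libraries between 0 and 70.0% for SAUR22.

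Ordered by mean FPKM, the 5 flight groups held the first 5 places of the 10 for all 7 members, on both scales. As deposited, all 4 values of a group exceeded all 4 of the next at a single step for each array gene. That step lay between the lowest flight group and the highest ground group. After rescaling this held for 5 of the 6, and for SAUR24 no neighbouring groups were separated. For SAUR15 none were separated on either scale. The share of all loci with this order or step was not counted, so these counts only describe the members. Within single genotypes, 28.4 to 31.3% of all loci had all 4 flight values above all 4 ground values on both scales. Among flight groups the highest mean was in ire1aire1b for SAUR19 (12.9 ± 1.3 FPKM), SAUR22 (27.8 ± 7.81), SAUR23 (28.3 ± 4.17) and SAUR24 (19.1 ± 7.98), and in WT for SAUR20 (8.13 ± 2.31), SAUR21 (13.5 ± 2.34) and SAUR15 (2.61 ± 0.838; SD, n = 4 each). The lowest flight mean was in bzip60 for SAUR19 (10.1 ± 1.14), SAUR20 (5.77 ± 1.87) and SAUR24 (14.1 ± 2.15), in bzip28bzip60 for SAUR21 (10.5 ± 1.3), and in bzip28 for SAUR22 (22.6 ± 4.39), SAUR23 (21.5 ± 3.24) and SAUR15 (1.04 ± 0.652). bzip60 had the highest ground mean for 7 of 7 members as deposited and for 3 of 7 (SAUR20, SAUR24 and SAUR15) after rescaling. The share of all loci with their highest ground mean in bzip60 was not counted. Against WT on the ground, 69.8% of all loci were called higher in bzip60 as deposited, and 2.26% on both scales. Over the 20 flight libraries the rescaled log2 values of 2 array genes correlated with r between 0.06 and 0.65 (median 0.34 over 15 pairs), and over the 20 ground libraries between 0.22 and 0.60 (median 0.40), with shared reads, shared scaling and genotype all inside these numbers.

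Mutants and WT were also compared within each condition. In flight none of the 24 pairs of array gene and mutant passed the threshold, nor did any at an unadjusted p below 0.05 on either scale (limma); the differences lay between -0.43 and 0.28 (-0.41 and 0.29 rescaled). Over all loci and the 4 mutants, 2.04% of pairs had an unadjusted p below 0.05 in flight as deposited and 4.33% rescaled. The share of all loci called in either direction was 0.141% in bzip28, 0.151% in bzip60 and 0.167% in each double mutant. On the ground 1 of 24 pairs was called on both scales, SAUR24 in bzip60. At an unadjusted p below 0.05, 9 pairs were higher and 0 lower as deposited, and 7 higher and 0 lower rescaled. Over all loci the same threshold was passed by 22.4% of pairs as higher and 3.25% as lower on the ground as deposited, and by 8.47% as higher and 7.4% as lower rescaled. The share of all loci called on the ground was 2.49% in bzip60 (2.26% in the higher direction), 0.829% in bzip28bzip60, 0.698% in bzip28 and 0.136% in ire1aire1b.

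SAUR15, in the fit without a filter, was not called in any mutant against WT (limma). In flight its difference was -0.85 (-0.72 rescaled) in bzip28, with an unadjusted p of 5.1e-04 (0.0018 rescaled) and an adjusted p of 0.14 (0.37 rescaled). It was -0.47 (-0.42) in bzip28bzip60, with an unadjusted p of 0.038 (0.056 rescaled), -0.37 (-0.33) in ire1aire1b and -0.35 (-0.31) in bzip60. All 4 mutants thus lay below WT on average in flight, and in each the highest mutant value lay above the lowest WT value, 1.58 FPKM. On the ground the differences were 0.26 (0.23) in bzip60, 0.13 (0.14) in ire1aire1b, 0.05 (0.04) in bzip28bzip60 and 0.03 (0.03) in bzip28. Its flight response was smaller than in WT by a log2 difference of -0.88 (-0.75 rescaled) in bzip28, with an unadjusted p of 0.0079 (0.018 rescaled) and an adjusted p of 1 (0.54 rescaled). In the other mutants that difference was -0.61 (-0.54) in bzip60, -0.52 (-0.46) in bzip28bzip60 and -0.50 (-0.47) in ire1aire1b.

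SAUR24 rose in bzip60 against WT on the ground by 1.71 ± 0.35 (1.58 rescaled; adjusted p = 5.0e-04 and 0.0081, limma). Its values were 1.25, 2.33, 8.16 and 1.46 FPKM in bzip60 ground, against 0.487, 0, 0 and 0 FPKM in WT ground. All 4 bzip60 values lay above all 4 WT values, a separation that was not counted over all loci. Of these bzip60 values, 1 stood far above the other 3. Without that library the difference was 1.26 (1.12 rescaled; adjusted p = 0.0026 and 0.055, limma), so the call on both scales rested on it. As deposited, 5 of the 6 array genes (all but SAUR21) were called higher in bzip60 ground than in WT ground, where 69.8% of all loci were called higher and the median over all loci was 0.55 (0.01 rescaled). AT2G01021 held 36.1 to 66.9% of the summed FPKM in bzip60 ground libraries and 73.7 to 84.7% in WT ground libraries; its part in the difference was not tested.

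The flight response itself was compared between each mutant and WT. None of the 24 pairs of array gene and mutant passed on both scales. At an unadjusted p below 0.05 the response was smaller than in WT for 8 pairs as deposited and 6 rescaled, and larger for 0 (limma). Over all loci the same threshold was passed by 14.1% of pairs as smaller and 0.839% as larger as deposited, and by 3.7% as smaller and 3.51% as larger rescaled. As deposited the response was smaller in bzip60 for SAUR24 (by a log2 difference of -1.76, adjusted p = 0.036), SAUR20 (-1.44, adjusted p = 0.039) and SAUR22 (-1.35, adjusted p = 0.040), where 22.2% of all loci were called lower as deposited and the median was -0.56 (-0.01 rescaled). Over all mutants and array genes the rescaled difference ranged from -1.63 to 0.31. On both scales, the share of all loci called was 0.0313% in bzip60, 0.0208% in bzip28, 0.0156% in bzip28bzip60 and 0.00521% in ire1aire1b. The 4 mutants share the WT libraries, so these comparisons are not independent of each other.

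The genes that lie within the array but outside the family were not called in the same direction on both scales. DRT101 (AT5G18070), which codes for an enzyme of amino sugar metabolism, averaged 8.30 ± 0.667 FPKM in flight and 4.78 ± 1.69 FPKM on the ground (SD, n = 20 each), a difference of 0.75 as deposited (adjusted p = 4.4e-09, limma) and 0.09 rescaled (adjusted p = 0.23). AT5G18040 averaged 12.2 ± 2.23 FPKM in flight and 10.7 ± 2.77 FPKM on the ground, a difference of 0.19 as deposited (adjusted p = 0.029, limma) and -0.53 rescaled (adjusted p = 2.8e-10), past the threshold in opposite directions. Both were chosen for their position.

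Of 73 further loci that carry a SAUR name in the reference annotation, 46 were tested, and 31 rose and 5 fell as the mean of the genotypes, against 46.8% of all tested loci that rose and 5.57% that fell. Some of the 46 reached the filter mean of 1 FPKM only through flight, such as SAUR26 (3.13 FPKM in flight, 0.077 on the ground). The count and the median of this list are therefore a description. The list's median was 1.76 (1.43 rescaled), against 0.76 (0.10) over all loci; one of the 73, AT5G01830, carries the name only as a synonym and did not pass. The 5 with the largest rise as deposited were SAUR6 (25.7 ± 6.42 FPKM in flight, SD, n = 20, and listed at 0 in 4 ground libraries; 4.32, 3.87 rescaled), SAUR1 (4.05, 3.59), SAUR13 (3.64, 3.13), SAUR29 (3.49, 3.06) and SAUR50 (3.43, 2.82); rescaled, SAUR52 (3.37, 2.89) stood above SAUR50. SAUR13, SAUR14 and SAUR16, which neighbour SAUR15 on chromosome 4, all rose, SAUR14 by 2.40 (1.75) and SAUR16 by 3.23 (2.69). The 5 that fell were SAUR33 (1.66 ± 0.829 FPKM in flight and 5.47 ± 3.20 on the ground, SD, n = 20 each; -1.20, -1.75 rescaled), SAUR59 (-0.62, -1.37), SAUR79 (-0.39, -0.87), SAUR36 (-0.39, -1.14) and SAUR72 (-0.28, -0.95). SAUR36 is known from leaf senescence. Only SAUR6 and SAUR1 had a larger mean difference than SAUR22 on both scales.

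**Figure D3:**
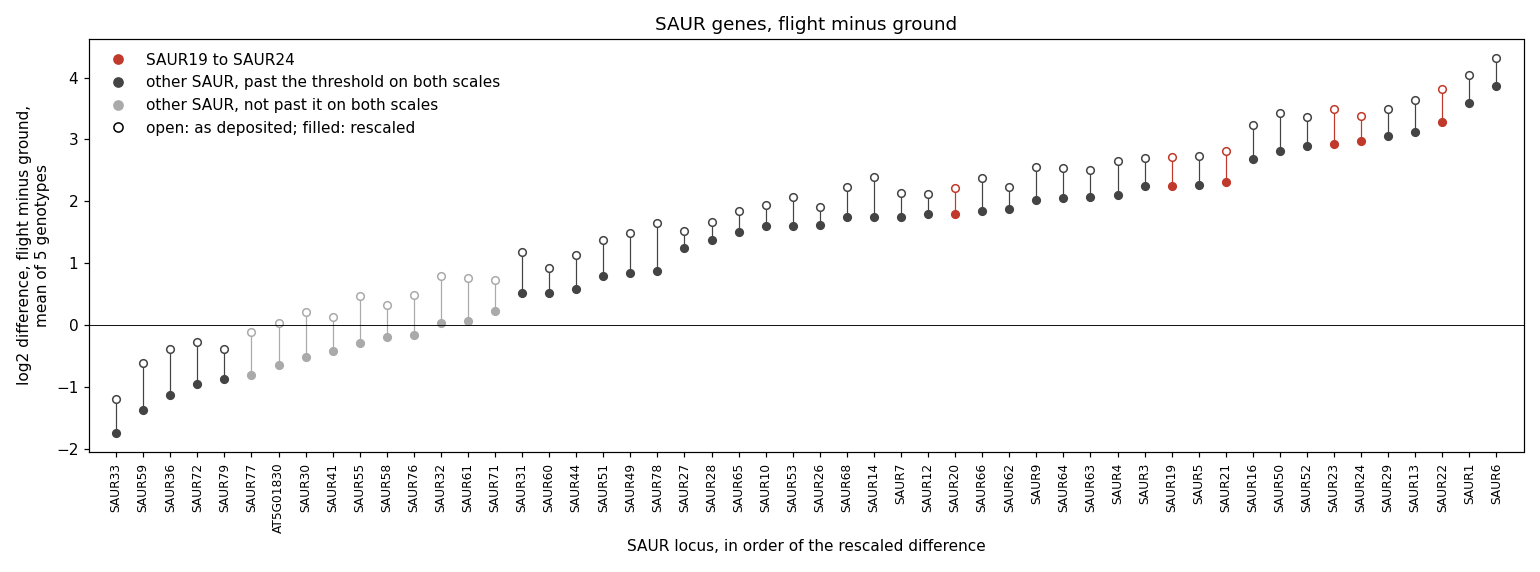
Flight minus ground log2 difference, as the mean of 5 genotypes, of SAUR19 to SAUR24 (red) and the 46 other tested SAUR loci (dark where past the threshold in the same direction on both scales, pale otherwise), in order of the rescaled difference. Open points are as deposited and filled points rescaled. The array genes lie from 1.8 (SAUR20) to 3.28 (SAUR22) rescaled, within the upper part of the family.

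The partners of SAUR proteins in cell expansion gave smaller median differences. Over all loci 46.8% rose as the mean of the genotypes, with a median of 0.76 (0.10 rescaled). Both lists below lay near that share and that median. Of 9 PP2C.D phosphatases, the enzymes SAUR proteins inhibit, 4 rose and 0 fell, with a median of 0.80 (0.05 rescaled). APD7 rose by 1.90 (1.14), with 61.4 ± 10.3 FPKM in flight and 17.8 ± 9.98 FPKM on the ground (SD, n = 20 each), APD6 by 1.46 (0.70) and AT3G17090 by 1.23 (0.48). Of 11 plasma membrane proton pumps 8 were tested, and 4 rose and 0 fell, with a median of 0.84 (0.11). HA3 rose by 2.54 (1.8), with 57.9 ± 9.38 FPKM in flight and 9.50 ± 3.32 FPKM on the ground, HA11 by 1.89 (1.19) and HA7 by 0.93 (0.44). The most abundant pumps, HA1 and HA2, neither rose nor fell. HA1, at 0.84 (0.05), passed only as deposited, and HA2, at 0.40 (-0.38), was past the threshold in opposite directions on the scales.

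The counts of the auxin lists stand beside the 46.8% of all loci that rose and the 5.57% that fell. No list was tested as a set. Of 12 auxin synthesis genes 3 were tested and all 3 rose: TAA1, which makes the precursor of auxin, by 1.91 (1.3), and the flavin monooxygenases YUC8 by 1.36 (0.74) and YUC6 by 1.08 (0.49). TAA1 had 10.4 ± 1.22 FPKM in flight and 2.13 ± 0.913 FPKM on the ground. Of 6 auxin receptors 2 rose and 0 fell, with a median of 0.68 (-0.09): GRH1, also called AFB1, by 1.76 (1.02) and AFB4 by 0.84 (0.16). TIR1, the founding receptor, was past the threshold in opposite directions on the scales, at 0.56 (-0.21). Of 5 activating auxin response factors 3 rose and 0 fell (median 1.05, 0.34 rescaled): ARF19 by 1.19 (0.49), MP by 1.15 (0.46) and ARF8 by 1.05 (0.34). Of 7 GH3 enzymes, which conjugate auxin to amino acids and respond to it, 5 were tested and 1 rose, GH3.3 by 1.09 (0.37), with a median of 0.28 (-0.49). Of 7 PIF and BZR growth factors 6 were tested and 4 rose, with a median of 1.05 (0.30): PIF3 by 1.22 (0.48), PIL5 (PIF1) by 1.21 (0.51) and BES1 by 1.18 (0.40), and PIL6 (PIF5) by 0.92 (0.20). Taken by single genotypes, YUC8 rose in 4 of 5, GH3.3 in 1 of 5, and AFB4 and PIL6 in 0 of 5. The other genes named here as risen did so in all 5.

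**Figure D4:**
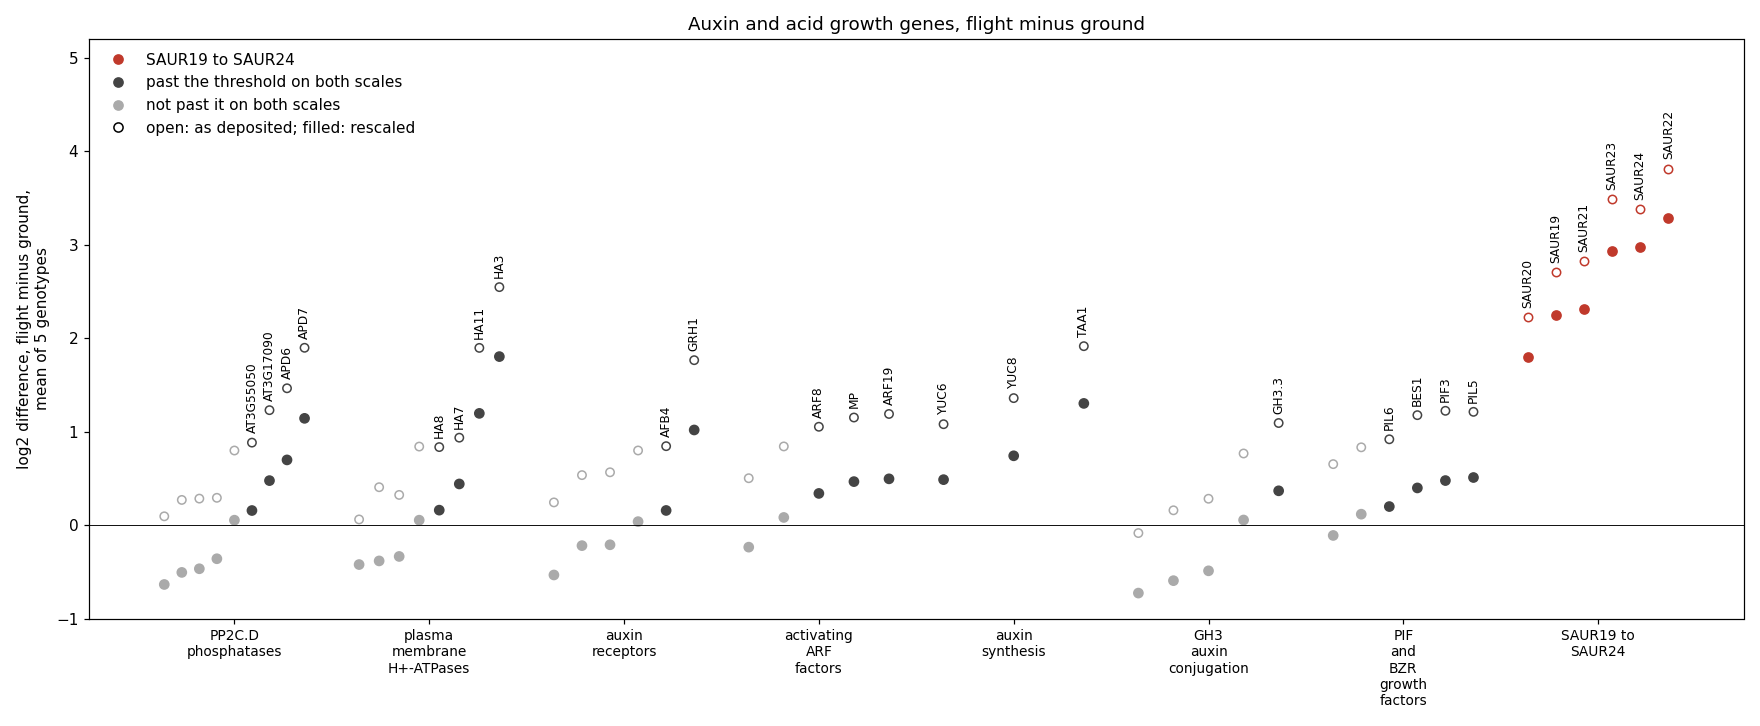
Flight minus ground log2 difference, as the mean of 5 genotypes, of the tested genes of 7 auxin and cell expansion lists beside SAUR19 to SAUR24 (red). Dark points passed the threshold in the same direction on both scales and pale ones did not. Open points are as deposited and filled points rescaled. No listed gene reaches the rescaled difference of SAUR22, and HA3, at 1.8, lies at the level of SAUR20.

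The seedlings were whole, so fewer cells of a type and less RNA per cell cannot be told apart in these values. Markers of several tissues rose as the mean of the genotypes, where 46.8% of all loci rose. All 3 shoot epidermis markers did: PDF1, a protodermal protein, by 4.39 (3.65 rescaled), the lipid transfer protein LP1 by 4.16 (3.42) and the homeodomain factor ATML1 by 1.20 (0.47). By genotype, 2 of the 3 rose in bzip28bzip60 and all 3 in each other genotype. The summed level of the 3 was 286 to 636 FPKM in flight libraries and 11.6 to 84.3 FPKM in ground libraries. All 3 markers of green or cotyledon tissue rose, RBCS1A by 2.54 (1.75), CAB1 by 2.00 (1.22) and CAB3 by 1.42 (1.02), with a summed level of 1001 to 2082 FPKM in flight and 126 to 547 FPKM on the ground. By genotype, all 3 of these rose in WT, bzip28 and ire1aire1b, 2 in bzip60 and 1 in bzip28bzip60. Both endodermis markers rose, CASP1 by 1.50 (0.72) and SCR by 1.20 (0.46), with a sum of 88.4 to 220 FPKM in flight and 23.3 to 126 FPKM on the ground. Of 4 root epidermis and root hair markers 3 were tested and 2 rose, PRP3 by 1.3 (0.64) and EXPA18 by 0.68 (0.29), with a sum of 7.07 to 33 FPKM in flight and 2.09 to 17.2 FPKM on the ground. Taken by single genotypes, PRP3 rose in 1 of 5 and EXPA18 in 0 of 5. Of 2 vascular markers SUC2 rose, by 1.46 (0.69) and in 3 of 5 single genotypes. Their sum was 65.4 to 152 FPKM in flight and 17.5 to 60.4 FPKM on the ground. The 3 seed storage genes were at or near 0, with a highest sum of 0.186 FPKM in flight and 4.03 FPKM on the ground. The part of these tissues in the level of the members was not tested.

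On the ground, where the members were low, single libraries stood out. ire1aire1b ground replicate 4 had the highest value of its group for 7 of 7 members, with an array sum of 12.4 FPKM against 1.70 to 3.22 FPKM in the other 3. Its shoot epidermis sum was 23.6 FPKM and the other 3 lay at 13.6 to 37.2 FPKM, and AT2G01021 held 75.3% of its FPKM against 75.9 to 83.9% in the others. Among WT ground libraries replicate 1 had the highest value for 4 of 7 members, with an array sum of 5.62 FPKM. bzip60 ground replicate 3 had the highest array sum of all ground libraries, 17.6 FPKM, and still lay below the lowest flight library, at 72.4 FPKM.

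Likeness to the mean array profile was taken over the 10 group means of rescaled log2 values. The pool was 13480 loci, members left out, with a mean of at least 5 rescaled FPKM. Most alike were AT1G29660 (r = 0.999), AT3G05727 (0.998), the tubulin gene TUB5 (0.998), AT1G09310 (0.997) and GIP1 (AT3G13222, 0.997). TUB5 averaged 113.5 FPKM in flight and 8 FPKM on the ground, and AT3G05727 averaged 644.8 FPKM in flight and 3.80 FPKM on the ground. The loci most like SAUR15 were AT3G05280 (0.989), COP8 (0.986), AT1G26460 (0.979), XTH28 (0.978) and SAD1 (0.978), which differed far less between conditions, COP8 with 21.5 FPKM in flight and 10.8 FPKM on the ground. These correlations mostly carry the split between 5 flight and 5 ground groups: 2528 of the 13480 loci had r above 0.95 with the array and 750 with SAUR15.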

How the data were processed

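Stranded mRNA libraries of whole seedlings were sequenced, per the labels. The FPKM table that the authors deposited covers 34133 loci, for 40 of 44 labelled samples; the other 4 served only first quality controls per the labels. The submitters' processing notes name FastQC 0.11.5, cutadapt 1.8.1, Bowtie2 2.2.4, TopHat2 2.0.14, Cufflinks 1.3.0 and the build TAIR10. FPKM divides by all mapped fragments, so a locus that takes many of them lowers all others.

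Values were taken to log2(FPKM + 1), and 19186 loci with a mean of at least 1 FPKM were tested with limma 3.58.1 in R 4.3.3 (eBayes with trend, 10 group means, 30 residual degrees of freedom), as deposited and after median-ratio rescaling over 14104 loci above 1 FPKM in all libraries. It gave 18 comparisons, each adjusted by Benjamini-Hochberg at 0.05. Alternatives were a pseudocount of 0.1, other filters and scalings, replicate, lane and title letter terms, subsets of groups, and leaving out each library. Sequences came from RefSeq TAIR10.1 (Biopython 1.88 alignments); the table gives no coordinates. Figures used Python 3.11.15 and matplotlib 3.10.9.

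The 7 members were named in every comparison, SAUR15 not within lanes, where the filter left it out. From each list up to 3 higher and 3 lower loci past the threshold on both scales were named by size, and 5 and 5 of the other SAUR genes; SAUR14, SAUR16, SAUR52, PIL6, HA1, HA2, TIR1 and the marker genes were added after their values were seen. The members and lists were chosen with earlier results of these data known. Replicates are separate plates, numbered in the titles.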

Additional observations from a re-analysis of the deposited data

Results flagged for a closer look

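Of 70 sets of 4 libraries (7 members in 10 groups), 15 held a value far from the other 3 by Dixon's test of gap over range; chance flags about 1 in 20, and several zeros in a group make such a gap more likely. High values stood alone on the ground in ire1aire1b replicate 4 for SAUR19 (2.53 FPKM) and SAUR15 (0.604), in bzip28 replicate 4 for SAUR24 (0.798) and SAUR15 (0.224), in bzip28 replicate 3 for SAUR21 (1.62), in bzip60 replicate 3 for SAUR24 (8.16) and SAUR15 (0.674), in WT replicate 1 for SAUR20 (0.762) and SAUR24 (0.487), and in WT replicate 4 for SAUR15 (0.124). A low value stood alone for SAUR21 in bzip60 ground replicate 2 (0.228). In flight, high values stood alone for SAUR20 in bzip28bzip60 replicate 3 (7.72) and SAUR24 in WT replicate 1 (18.3), and low ones for SAUR21 in ire1aire1b replicate 4 (11.7) and SAUR22 in WT replicate 2 (19.2).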

How the results depend on the processing

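The 30 pairs of array gene and genotype that rose in flight stayed at 30 without each library in turn (30 to 30) and under the other settings with these 6 genes; the filter at 5 FPKM left out SAUR20 (25), and without a filter SAUR15 joined (35). On the ground, 1 pair of array gene and mutant was higher than WT; there were 5 as deposited alone, 2 with a pseudocount of 0.1 (SAUR20 and SAUR24), 0 with only the groups compared fitted (SAUR24 adjusted p = 0.19 rescaled, limma), and 0 to 2 without each library (0 without bzip60 ground replicate 3, and 2 without bzip60 ground replicate 4, where SAUR22 joined). A smaller flight response than in WT was called for 0 pairs, and for 3 as deposited alone. The cause of these shifts was not tested, and the share of all loci called was not counted for most of these settings. No difference reversed sign while called. With the pseudocount of 0.1 the difference of SAUR24 between bzip60 and WT on the ground was 4.03 in place of 1.71.

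Same-numbered flight and ground libraries of a genotype did not as a rule deviate together (r between -0.21 and 0.30 over 20 pairs of group deviations, 6 above 0.1; 12 of 40 libraries correlated best with their own number). With the replicate block the counts were 30 in flight, 1 on the ground and 0 for the response, as without it. The titles also hold a letter A to D and a position, which the labels do not explain; the seedlings grew in 4 canisters, and whether the letter names one is not given in the sources used here. Of 18 pairs of a flight and a ground library of a genotype with the same letter and position, 17 also share the number, and r lay between -0.21 and 0.30 (6 above 0.1). With the letter as a term, added after seeing the data, the counts were again 30, 1 and 0. Ground levels of the members rest on few fragments, which limits every comparison between ground groups.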
